A study of Drosophila melanogaster with 12 samples.

Results

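The 10 genes described here encode parts of the machinery that licenses DNA for replication in Drosophila melanogaster: the 6 subunits of the MCM helicase (Mcm2, Mcm3, dpa, Mcm5, Mcm6 and Mcm7), 2 subunits of the origin recognition complex (Orc1 and Orc2), the helicase loader dup and its inhibitor geminin. They were chosen by symbol, with no measured value in the rule, but with earlier results of these data known. All 10 are among the 16718 genes of the count table. All 10 were also among the 7377 genes that passed the filter on low counts and were tested. Transcripts were counted by 3' RNA-seq in S2 cells, a line derived from fly embryos with hemocyte (blood cell) character. The 4 groups of 3 libraries were control cells with no treatment, cells given double-stranded RNA (dsRNA) to BEAF-32 (BEAF-32 RNAi), cells given dsRNA to row (row RNAi), and cells given dsRNA to both (double RNAi). The dsRNA came in a dose of 4 µg and, 2 days later, of 8 µg per ml of culture, and cells were taken 2 days after that. No group received dsRNA of unrelated sequence, and all groups are the same cell line. BEAF-32 is a DNA-binding boundary protein and row encodes a zinc finger chromatin protein, and the question here is whether licensing transcripts differ when either or both are targeted.

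Licensing is the step that lets each stretch of DNA be copied only once per cell cycle. As background, the origin recognition complex binds DNA in G1 and, with Cdc6 and the Cdt1 protein (encoded by dup, double parked, in flies), loads the ring-shaped MCM complex around DNA. After S phase begins, geminin binds Cdt1 and keeps further MCM rings from being loaded. The genes are used in dividing cells, and many of them are targets of E2F transcription factors.

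None of the 10 licensing genes differed between groups beyond the test in any of 8 comparisons. Called here means an adjusted p under 0.05 by edgeR (quasi-likelihood test, Benjamini-Hochberg over all 7377 tested genes). In BEAF-32 RNAi against control 0 of 10 were called, where 0.0271% of all tested genes were called. In row RNAi against control the count was 0 of 10 against 0.19%, and in double RNAi against control 0 of 10 against 0.271%. DESeq2 and limma-voom also called 0 of 10 in each comparison. An unadjusted p under 0.05 was reached by 0 members in BEAF-32 RNAi (5.18% of tested genes), by 0 in row RNAi (5.73%) and by 1, Orc2, in double RNAi (8.63%). The 3 values of a dsRNA group overlapped the 3 control values for every member in all 3 comparisons, while groups did not overlap for 10.2%, 11.8% and 13.1% of tested genes. With so few genes called in the whole table, 0 of 10 is what the background share gives. Nothing in the labels says whether replicates came from separate cultures, and the p-values measure the spread between these libraries, which may be technical. In bulk RNA, fewer cycling cells and less RNA per cell cannot be told apart.

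The libraries held 2276507 to 3963412 counts. The 10 members together held 1457 to 2944 of these. The target transcripts checked the labels: BEAF-32 averaged 36.7% of its control level in BEAF-32 RNAi and 52.3% in double RNAi, and row averaged 51.7% in row RNAi and 61.9% in double RNAi. By edgeR the first 3 of these were called (adjusted p = 0.000177, 0.0322 and 0.0379), and that of row in double RNAi was not (adjusted p = 0.202). Of 11 hemocyte markers 10 were measured in every library, and NimC1 had 0 to 7 counts. Summed, they came to 2099 to 2162 CPM (counts scaled to a library total of 1000000) in control, 1839 to 2015 in BEAF-32 RNAi, 1983 to 2098 in row RNAi and 1773 to 2062 in double RNAi. Most of the sum came from Cg25C and Pxn, with means of 812 and 530 CPM over the 12 libraries. The hemocyte marker He was called lower in row RNAi (log2 change -1.96, adjusted p = 0.0484 by edgeR). Its means were 38.2 CPM in control, 62.0 in BEAF-32 RNAi, 9.89 in row RNAi and 24.9 in double RNAi. Counts of the fat body markers Lsp2 and Fbp1 were 0 in every library, and those of the muscle gene Mhc, the germline gene vas and the follicle gene tj were at most 2, 4 and 7. Among markers of other cell types with counts in every library, elav (neuron) averaged 12.0 CPM, Mef2 (muscle) 13.01, bam (germline) 5.79 and br (follicle) 97.0. On the same lists, the neuron genes nSyb and brp had at most 4 counts per library. The muscle gene up had at most 5 and the germline gene nos at most 6. The lamellocyte marker PPO3 averaged 26.0 CPM in control, 34.5 in BEAF-32 RNAi, 46.1 in row RNAi and 38.6 in double RNAi. Its row RNAi value (log2 change 0.83) had an adjusted p of 0.135 by edgeR. Of the same list, atilla had 0 to 5 counts per library and ItgaPS4 had 0 to 17, and neither was tested. ItgaPS4 averaged 1.66 CPM in control, 1.11 in BEAF-32 RNAi, 3.11 in row RNAi and 2.43 in double RNAi. Ribosomal protein genes took 38.4% to 42.1% of counts.

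**Figure D1:**
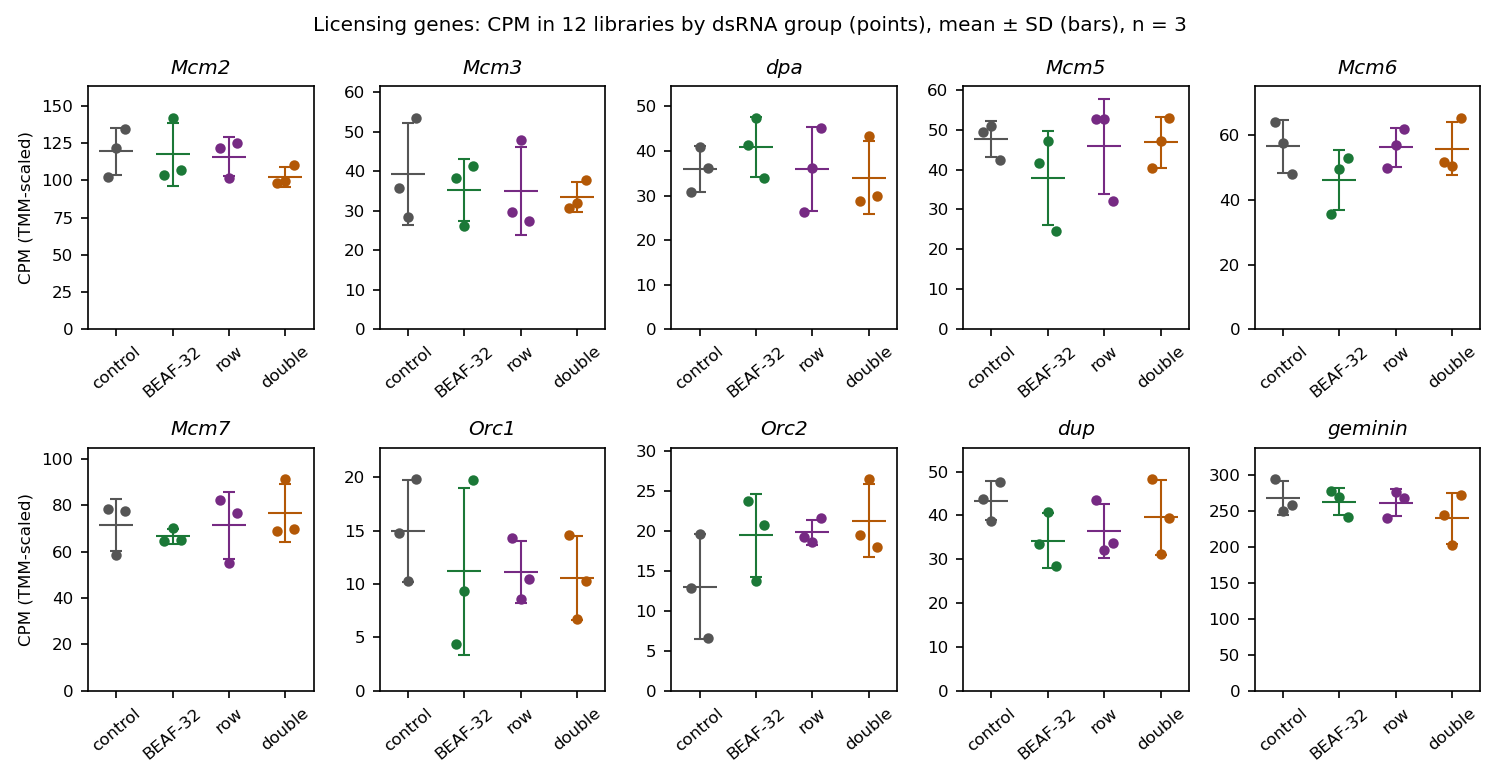
CPM (scaled by TMM) of each licensing gene in the 12 libraries, with 1 panel per gene and a vertical axis from 0. Points are libraries ordered by replicate number within a group, and bars are the mean ± SD of 3; the points of each dsRNA group overlap those of control in all 10 panels.

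Values are given as CPM on the TMM-scaled library total, with replicates 1, 2 and 3 in that order. Orc2, a core subunit of the origin recognition complex, stood at 12.9, 19.7 and 6.60 CPM in control, at 23.8, 13.7 and 20.8 in BEAF-32 RNAi, at 19.3, 18.6 and 21.6 in row RNAi, and at 19.5, 26.5 and 18.0 in double RNAi. Control replicate 3 was the lowest of the 12 libraries, and control replicate 2 lay within the range of each dsRNA group. The means were 13.1 ± 6.538 CPM in control (SD, n = 3), 19.5 ± 5.19 in BEAF-32 RNAi, 19.9 ± 1.58 in row RNAi and 21.3 ± 4.56 in double RNAi. The log2 change against control was 0.56 (SE 0.33) in BEAF-32 RNAi, 0.59 (SE 0.33) in row RNAi and 0.69 (SE 0.33) in double RNAi. The adjusted p values by edgeR were 0.935, 0.875 and 0.547. In double RNAi the unadjusted p was 0.0413, the smallest of any member in any comparison, with a 95% interval of 0.03 to 1.35 that is not adjusted for the number of genes. These 3 comparisons share the control libraries, and without control replicate 3 the log2 changes were 0.24, 0.28 and 0.37. Without control replicate 2 they were 0.99, 1.03 and 1.12, with the smallest adjusted p, 0.325 by edgeR, in double RNAi. Its counts ran from 19 to 75 per library, so each value rests on few reads.

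Orc1, the largest origin recognition subunit and a target of E2F in flies, had the fewest counts of the 10, 11 to 57 per library. It stood at 14.8, 10.3 and 19.8 CPM in the control libraries, 4.37, 9.37 and 19.8 in BEAF-32 RNAi, 14.3, 8.62 and 10.5 in row RNAi, and 14.6, 6.74 and 10.3 in double RNAi. The BEAF-32 RNAi group held both the lowest value of the 12 and the second highest, just under the highest control library. Its log2 changes were -0.41 (SE 0.41), -0.42 (SE 0.41) and -0.50 (SE 0.42) against control, with adjusted p from edgeR of 0.994, 0.993 and 0.808. The 95% interval in double RNAi ran from -1.34 to 0.33, so a 2-fold fall, though not a 2-fold rise, could not be told from no change for this gene. Without BEAF-32 RNAi replicate 3 its log2 change in that group was -1.09, and without replicate 1 it was -0.04, and neither passed.

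The loader gene dup had 43.7, 38.7 and 47.6 CPM in the control libraries, 33.4, 40.9 and 28.5 in BEAF-32 RNAi, 43.6, 32.1 and 33.7 in row RNAi, and 48.3, 31.1 and 39.3 in double RNAi. Its BEAF-32 RNAi mean was 34.2 ± 6.27 against 43.3 ± 4.45 in control (SD, n = 3), or 79.0%, and the highest value of the first lay above the lowest of the second. The log2 changes were -0.33 (SE 0.22), -0.25 (SE 0.22) and -0.13 (SE 0.22) in BEAF-32, row and double RNAi, with adjusted p from edgeR of 0.948, 0.993 and 0.939. The interaction on the log2 scale, which asks whether both dsRNAs together differ from the sum of each alone, was 0.45 for dup (95% interval -0.17 to 1.07). Its unadjusted p of 0.151 by edgeR was the smallest of the 10 members in that comparison. The targets averaged higher in double RNAi than in the single groups. BEAF-32 was at 52.3% of control against 36.7%, and row at 61.9% against 51.7%. How far this enters the interaction was not tested.

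Geminin, the inhibitor, was the most abundant member in all 12 libraries. It stood at 294, 249.9 and 259 CPM in the control libraries, 278, 269 and 242 in BEAF-32 RNAi, 240.4, 276 and 267 in row RNAi, and 244, 202 and 272 in double RNAi. Double RNAi replicate 2 was the lowest of the 12, replicate 3 lay within the control range and replicate 1 just under it. The log2 changes were -0.02 (SE 0.10), -0.03 (SE 0.10) and -0.15 (SE 0.10), with adjusted p from edgeR of 0.994, 0.996 and 0.716. With 480 to 1134 counts per library it was measured most precisely. Its 95% interval was -0.23 to 0.18 in BEAF-32 RNAi and -0.24 to 0.17 in row RNAi. In double RNAi the interval ran from -0.36 to 0.05. The CPM of geminin over that of dup, the inhibitor over its target, averaged 6.20 ± 0.684 in control (SD, n = 3), 7.79 ± 1.06 in BEAF-32 RNAi, 7.35 ± 1.63 in row RNAi and 6.16 ± 0.969 in double RNAi, and ranged from 5.06 to 8.61 over the 12 libraries.

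**Figure D2:**
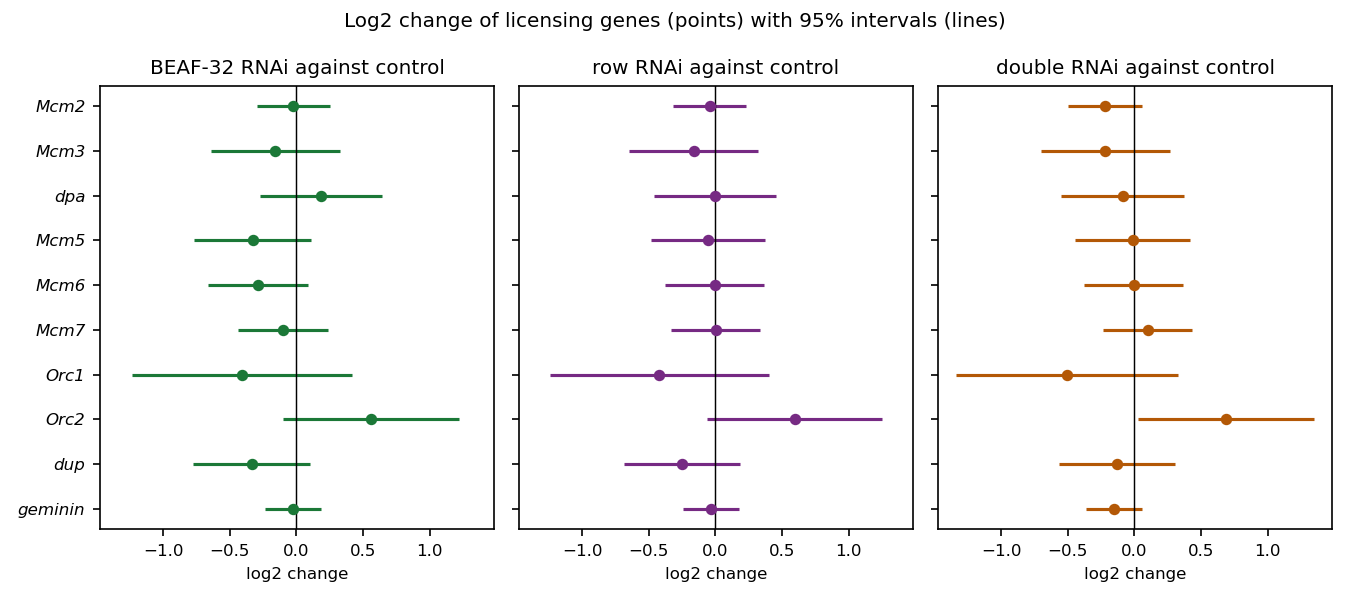
Log2 change of the 10 licensing genes in each dsRNA group against the shared control libraries. Points are edgeR estimates and lines are 95% intervals not adjusted for the number of genes; all but the interval of Orc2 in double RNAi (0.03 to 1.35) cross 0.

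The MCM helicase genes lay closer to control than the origin recognition genes in the plot of log2 changes, and they also had more counts. Mcm2, the most abundant of them, stood at 102, 122 and 134 CPM in the control libraries, 103, 142 and 107 in BEAF-32 RNAi, 122, 101 and 125 in row RNAi, and 97.9, 99.3 and 110.3 in double RNAi. In double RNAi replicates 1 and 2 lay just under the lowest control library and replicate 3 within the control range, with means of 102.5 ± 6.78 and 119.5 ± 15.96 (SD, n = 3). The log2 change there was -0.22 (SE 0.14, adjusted p = 0.683 by edgeR), with a 95% interval of -0.50 to 0.06. In BEAF-32 RNAi and row RNAi it was -0.02 and -0.04.

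Mcm5, which with Mcm2 forms the gate through which the ring opens, had 49.3, 50.9 and 42.4 CPM in the control libraries, 41.7, 47.1 and 24.6 in BEAF-32 RNAi, 52.6, 52.7 and 32.1 in row RNAi, and 40.3, 47.1 and 53.0 in double RNAi. Mcm6 had 64.2, 57.8 and 48.0 CPM in the control libraries, 35.8, 49.6 and 53.1 in BEAF-32 RNAi, 49.9, 56.9 and 62.1 in row RNAi, and 51.8, 50.5 and 65.5 in double RNAi. In BEAF-32 RNAi both genes held their lowest library of the 12, replicate 3 for Mcm5 and replicate 1 for Mcm6, and the other libraries of the group lay within or near the control range. The log2 changes in BEAF-32 RNAi were -0.33 (SE 0.22) for Mcm5 and -0.29 (SE 0.19) for Mcm6, each with adjusted p = 0.948 by edgeR. Without replicate 3 of that group the value of Mcm5 was -0.10, and without replicate 1 that of Mcm6 was -0.14. In the other direction, Mcm5 reached -0.53 without replicate 2 and Mcm6 reached -0.40 without replicate 3, and neither passed. In row RNAi and double RNAi both genes had log2 changes between -0.06 and -0.01.

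Mcm7, a core helicase subunit, had 78.6, 58.7 and 77.5 CPM in the control libraries, 64.8, 70.2 and 64.9 in BEAF-32 RNAi, 82.6, 55.2 and 76.9 in row RNAi, and 69.1, 91.3 and 70.0 in double RNAi. The gene dpa, which encodes the fly Mcm4 subunit, had 30.7, 40.9 and 36.1 CPM in the control libraries, 41.3, 47.5 and 34.0 in BEAF-32 RNAi, 26.3, 36.2 and 45.1 in row RNAi, and 28.8, 43.4 and 30.0 in double RNAi. Mcm3, which neighbours Mcm5 in the ring, had 35.7, 28.4 and 53.5 CPM in the control libraries, 38.2, 26.2 and 41.3 in BEAF-32 RNAi, 29.6, 47.9 and 27.5 in row RNAi, and 30.6, 32.0 and 37.6 in double RNAi. Of the 9 dsRNA libraries, 6 lay within the control range for Mcm7 and 7 for Mcm3, and for dpa 2 lay within it, 3 under and 4 over. Mcm7 lay at -0.10, 0.0034 and 0.10 on the log2 scale in BEAF-32, row and double RNAi, and dpa at 0.19, -0.0038 and -0.09. Mcm3 lay at -0.16, -0.16 and -0.22, and its sign turned in all 3 comparisons when control replicate 3, its highest library, was left out (0.13, 0.13 and 0.07). Summed over the 6 subunits the MCM genes came to 370.4 ± 18.5 CPM in control (SD, n = 3), 344 ± 33.4 in BEAF-32 RNAi, 361 ± 9.42 in row RNAi and 349.5 ± 26.9 in double RNAi.

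Read as a list, 8 of 10 members lay below 0 in each of the 3 comparisons with control, where 50.1%, 51% and 50.1% of all tested genes did in BEAF-32, row and double RNAi. The 3 comparisons share the control libraries, so these are not separate observations. The median log2 change was -0.13 in BEAF-32 RNAi, -0.04 in row RNAi and -0.11 in double RNAi, and that over all tested genes lay between -0.0044 and -0.00064. Among the 6 MCM genes 5 lay below 0 in each comparison, with medians of -0.13, -0.02 and -0.05. Of the members 7 were below 0 in all 3 comparisons, Orc2 was above 0 in all 3, and dpa and Mcm7 differed in sign between them. The size of these medians depended on single libraries, while their sign did not when any 1 library was left out: the BEAF-32 RNAi median was -0.25 without control replicate 2 and -0.04 without control replicate 3. In double RNAi it was -0.04 without double RNAi replicate 2.

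The intervals give the range of differences that these libraries leave possible. In each comparison with control, 8 of 10 intervals lay wholly within a 2-fold change in both directions, and the exceptions were Orc1 and Orc2. Within 1.5-fold lay 3 intervals in BEAF-32 RNAi (Mcm2, Mcm7 and geminin), 6 in row RNAi and 7 in double RNAi. Differences within an interval are not shown to be absent.

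**Figure D3:**
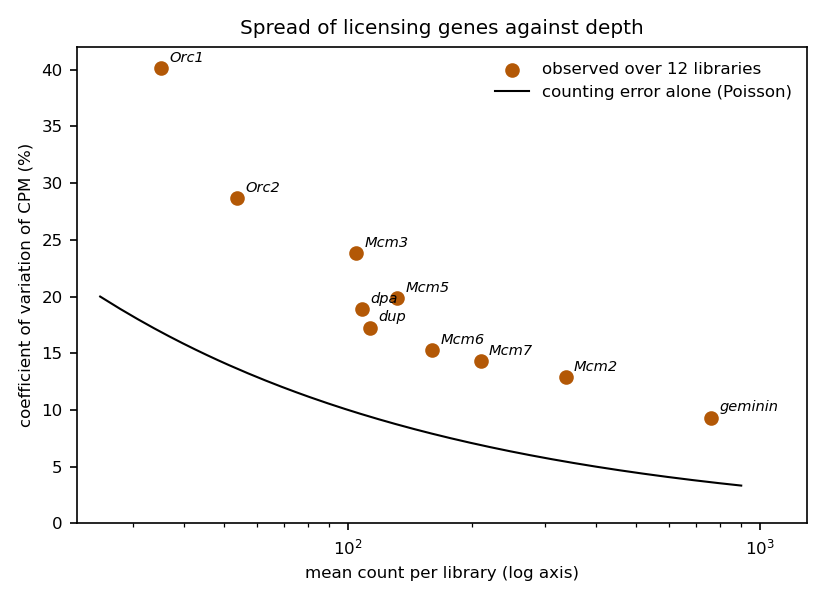
Coefficient of variation of CPM over the 12 libraries (vertical axis, percent) against the mean count per library (horizontal axis, log scale) for the 10 licensing genes (points), with the spread that counting error alone would give (line). Orc1, with the fewest counts, varied most (40.2%) and geminin, with the most, varied least (9.33%); all 10 points lie above the line.

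The spread of the members followed their depth. Over the 12 libraries the coefficient of variation was 40.2% for Orc1, where counting error alone gives 16.9% at its mean of 35.1 counts, 28.7% for Orc2 (13.7%), 12.9% for Mcm2 (5.44%) and 9.33% for geminin (3.63%). The biological coefficient of variation that edgeR fitted to each gene was 9.57% for geminin and 30.3% for Orc1, beside 9.63% and 28.2% for tested genes of like abundance. The fit draws each gene's value toward that of genes of like abundance, so their closeness is in part built in. Members did not track each other closely across libraries. The 45 pairs had Pearson r of log2 CPM from -0.63 (Orc2 with dup) to 0.43 (Mcm5 with dup), with a median of -0.01, and 21 were above 0. For the 15 pairs of MCM genes the median was -0.07. These are descriptions over 12 libraries in 4 groups that share library depth. Pairs of other genes of like abundance were not set beside them, and counting error brings r nearer to none. Whether the members track each other less than other genes was not tested.

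Members also differed in level, and on the CPM scale geminin was first and Mcm2 second in every library. A 3' assay counts transcript ends, so CPM is taken per transcript, and the order is given also per kilobase of the longest annotated transcript. On the CPM scale, over 12 libraries, geminin had a mean of 258 ± 24.0 (SD, n = 12), Mcm2 of 114 ± 14.7, Mcm7 of 71.7 ± 10.3, Mcm6 of 53.8 ± 8.22 and Mcm5 of 44.5 ± 8.85. Then came dup at 38.4 ± 6.63, dpa at 36.7 ± 6.94 and Mcm3 at 35.7 ± 8.50, with Orc2 at 18.4 ± 5.28 and Orc1 at 12.0 ± 4.80. Geminin exceeded Mcm2, and Mcm2 exceeded Mcm7, in 12 of 12 libraries, and Mcm7 exceeded Mcm6 in 11. The middle ranks did not separate: dup exceeded dpa in 5 of 12 libraries and dpa exceeded Mcm3 in 5. Orc2 exceeded Orc1 in 10 of 12. Per kilobase geminin was again first in 12 of 12 libraries, at 243 ± 22.7 CPM per kilobase against 39.3 ± 5.07 for Mcm2. Its transcript is the shortest of the members (1061 bases, against 2898 for Mcm2). That first place therefore followed from its CPM rank, and the scaling by length widened the gap. On this scale Mcm2 exceeded Mcm7 in 11 of 12 libraries, and Mcm3 moved from eighth to sixth place. In percentile of mean CPM among tested genes the members ran from 22.2 for Orc1 to 94.0 for geminin.

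Of the 10 genes, 4 lie on chromosome arm 2R (dpa, Orc1, dup and geminin), 3 on 3R (Mcm2, Mcm5 and Orc2), 2 on X (Mcm3 and Mcm6) and 1 on 3L (Mcm7), per the count table. Arm 2R held 20.4% of tested genes and 3R held 24.4%. In the reference annotation BDGP6.54, Mcm2, dpa, Mcm5, Mcm6 and geminin overlap no other gene. The other 5 overlap a gene on the opposite strand by exon. The overlap takes in the 3' end of Mcm3 (64 bases, with CG3309), Orc1 (105 bases, with PIG-G, listed as CG2144) and Orc2 (15 bases, with rdx). Counts of those neighbours ran from 24 to 51, from 52 to 191 and from 77 to 174 per library. The sources used here do not state strand use in counting, so the counts of these 3 genes are uncertain to that extent. For dup (158 bases, with SRPK) and Mcm7 (2003 bases, with the antisense transcript CR45871, at 0 to 7 counts) the 3' end lies outside the overlap.

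Between the dsRNA groups, 0 of 10 members were called in row RNAi against BEAF-32 RNAi (0.339% of tested genes), in double RNAi against BEAF-32 RNAi (0.122%) or in double RNAi against row RNAi (0%) by edgeR, DESeq2 or limma-voom. The unadjusted p was under 0.05 for 0 members in each, beside 7.36%, 7.62% and 6.21% of tested genes. Groups overlapped for all 10 members in each, and did not for 13.2%, 12.2% and 12.2% of tested genes. Mcm6 and Mcm5 had the widest differences between row RNAi and BEAF-32 RNAi, 0.28 (SE 0.19) and 0.27 (SE 0.22) on the log2 scale, with adjusted p from edgeR of 0.774 and 0.834. In the interaction 0 members and 0% of tested genes were called, with 0 members and 4.42% of genes at an unadjusted p under 0.05. In a joint test of any difference among the 4 groups 0 of 10 were called, beside 0.38% of tested genes. There 0 members and 7.74% of genes had an unadjusted p under 0.05. The smallest member value in the joint test was that of Orc2, with an adjusted p of 0.779 by edgeR.

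Genes that act before and after the licensing step were read in lists that were chosen with earlier results of these data known. Of the 61 tested genes in the 6 lists, 0 were called in each comparison with control by edgeR, and 6, 2 and 5 had an unadjusted p under 0.05 in BEAF-32, row and double RNAi. Among all tested genes 0.0271%, 0.19% and 0.271% were called, 5.18%, 5.73% and 8.63% had an unadjusted p under 0.05, and 50.1%, 51% and 50.1% lay below 0. Of the other licensing and origin binding genes, 6 of 7 were in the table and tested: Orc4, Orc5, Orc6, Cdc6, Mcm10 and rec. Orc6, the smallest origin recognition subunit, lay at 0.82 (SE 0.35, adjusted p = 0.5 by edgeR) and Cdc6, the loading ATPase, at -0.69 (SE 0.42, adjusted p = 0.672) in double RNAi. These had 18 to 69 and 14 to 41 counts per library. The list's median was 0.02, -0.12 and -0.13 in BEAF-32, row and double RNAi, with 3, 4 and 4 of 6 below 0.

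For the 11 helicase activation and firing genes the medians were -0.03, 0.02 and 0.01, with 6, 3 and 5 below 0. Among them Cdc7, the kinase that activates loaded MCM, lay at 0.80 in both BEAF-32 RNAi (SE 0.43) and row RNAi (SE 0.43), with adjusted p from edgeR of 0.929 and 0.862. RecQ4, a helicase needed for origin firing, lay at -0.84 (SE 0.41, adjusted p = 0.567) in double RNAi. The 18 replication fork genes, which copy the DNA once rings are active, had medians of -0.18, -0.06 and -0.09, with 15, 13 and 13 below 0. RfC3, a subunit of the clamp loader, lay at -0.54 (SE 0.18) in double RNAi with adjusted p = 0.264 by edgeR. DNApol-delta, the lagging strand polymerase, lay at -0.33 (SE 0.15) in BEAF-32 RNAi and -0.31 (SE 0.15) in double RNAi, with adjusted p of 0.894 and 0.547 by edgeR.

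**Figure D4:**
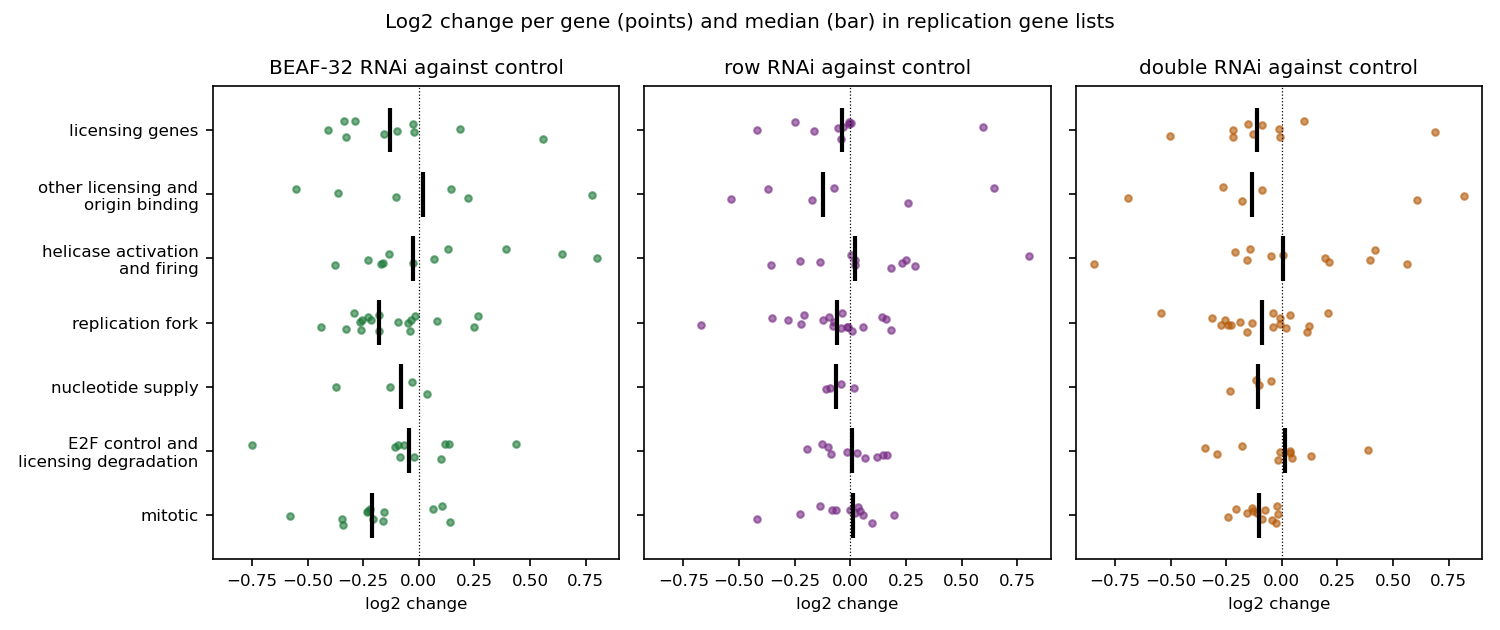
Log2 change of each gene (points) in the licensing genes and 6 lists of genes that act around them, in each dsRNA group against the shared control libraries, with the median as a black bar. Medians lay between -0.21 (mitotic genes in BEAF-32 RNAi) and 0.02, and no gene shown was called.

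The 4 nucleotide supply genes had medians of -0.08, -0.07 and -0.11, with the ribonucleotide reductase gene RnrS at -0.23 (SE 0.13, adjusted p = 0.632 by edgeR) in double RNAi. The 10 E2F control and licensing degradation genes had medians of -0.04, 0.01 and 0.01. In that list l(2)dtl, the fly Cdt2 that directs Cdt1 to degradation in S phase, lay at 0.44 (SE 0.24, adjusted p = 0.929 by edgeR) in BEAF-32 RNAi. The Cdk inhibitor gene dap lay at -0.34 (SE 0.20, adjusted p = 0.663 by edgeR) in double RNAi. The 12 mitotic genes had medians of -0.21, 0.01 and -0.10, with 9, 6 and 12 below 0. In BEAF-32 RNAi 3 of the 12 had an unadjusted p under 0.05: the kinase gene aurB at -0.35 (SE 0.15) and the cyclin genes CycA at -0.34 (SE 0.16) and CycB3 at -0.58 (SE 0.27), with adjusted p from edgeR of 0.86, 0.894 and 0.919.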

How the data were processed

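The authors deposited raw counts per gene for 12 libraries in 1 table, not normalized. The submitters' processing notes name STAR and the build dm3. The annotation, the counting tool, strand use and any collapsing of molecular identifiers were not stated there. Per the labels' protocols the libraries were made from oligo-dT primers carrying molecular identifiers. Library columns were tied to samples by title, and groups and replicate numbers come from the labels. The members and lists were chosen with earlier results of these data known.

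In R 4.3.3, edgeR 4.0.16 was run with filterByExpr by group (minimum count 10), TMM, and a robust quasi-likelihood fit by group on the 12 libraries (8 residual degrees of freedom, replicate number not used). P-values were adjusted over all 7377 tested genes. SE is the absolute log2 change over the square root of F, and 95% intervals use the test's total degrees of freedom. The code was tested on simulated data. Test results by gene cover all 10 members and the 2 targets. In each other list they cover genes among the 3 with the smallest p in the comparison described. Cell type markers are also named by level, and further genes by list membership, by overlap with a member or by likeness of profile. Alternatives used DESeq2 1.42.0 and limma 3.58.1. BDGP6.54 served for overlaps and transcript lengths only, since its build differs from dm3. Promoter and protein sequences were not analysed here.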

Additional observations from a re-analysis of the deposited data

How the results depend on the processing

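Each alternative fit was read once for every comparison it covers, which gave 122 readings, and 0 licensing genes were called in any of them. The smallest adjusted p of a member was 0.325 by edgeR (Orc2 in double RNAi, without control replicate 2). The alternatives were DESeq2's size factors, library totals alone, no filter, CPM of at least 10 in 3 libraries, DESeq2 (Wald test, or a likelihood ratio test for the joint comparison), limma-voom, fits with a replicate block, fits on the compared groups alone, and each library left out. Of 420 log2 changes of members, 44 took the opposite sign, none of them past the test, and the main values of those that did were at most 0.22 in size. Apart from left-out libraries these were Mcm7 (-0.011) in row RNAi and Mcm5 (0.024) and Mcm6 (0.034) in double RNAi with library totals. Without a filter they were dpa (0.0037) and Mcm6 (0.00079) in row RNAi. In limma-voom they were Mcm6 (0.0026) in row RNAi and Mcm5 (0.0082) and Mcm6 (0.029) in double RNAi. With the replicate block Mcm5 was 0.018 in double RNAi. With 1 library left out, values in BEAF-32 RNAi ranged from -0.19 to 0.067 for Mcm2, -0.35 to 0.13 for Mcm3 and -0.072 to 0.047 for geminin. In row RNAi they ranged from -0.14 to 0.048 for Mcm2, -0.45 to 0.13 for Mcm3, -0.21 to 0.18 for dpa, -0.17 to 0.15 for Mcm5, -0.11 to 0.091 for Mcm6, -0.12 to 0.16 for Mcm7 and -0.080 to 0.040 for geminin. In double RNAi they ranged from -0.41 to 0.069 for Mcm3, -0.29 to 0.015 for dpa, -0.12 to 0.077 for Mcm5, -0.15 to 0.090 for Mcm6, -0.037 to 0.17 for Mcm7 and -0.29 to 0.0081 for dup. The members' median ranged so from -0.25 to -0.044 in BEAF-32 RNAi against control, -0.14 to -0.041 in double RNAi against control, 0.019 to 0.11 in row RNAi against BEAF-32 RNAi, -0.055 to 0.083 in double RNAi against BEAF-32 RNAi, and -0.0027 to 0.28 in the interaction; in limma-voom it was 0.082 in row RNAi against BEAF-32 RNAi. The cause of these shifts was not tested.

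Counts of all genes called moved more: over all alternatives from 1 to 4 in BEAF-32 RNAi (2 as reported), 4 to 22 in row RNAi (14), 9 to 30 in double RNAi (20), 8 to 54 in row against BEAF-32 RNAi (25), 4 to 24 in double against BEAF-32 RNAi (9), 0 to 3 in double against row RNAi (0) and 18 to 75 in the joint test (28). Correlations of the libraries' deviations from their group means ran from -0.11 to 0.06 in 18 same-numbered pairs and from -0.11 to 0.10 in 36 other pairs. Of 12 libraries 5 correlated best with their own number. No shift shared by number was seen, which cannot show that same-numbered libraries were handled apart. With the replicate block 2, 13 and 18 genes were called in the comparisons with control and 16 in row against BEAF-32 RNAi. Orc1 and Orc2 had the fewest counts and the widest intervals; how much of that width is depth and how much spread between libraries was not tested.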

Other observations

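Over the 12 libraries, the genes whose log2 CPM was most like the mean standardised profile of the 10 licensing genes were Gprk2 (Pearson r = 0.90, Spearman rho = 0.85), CG18336 (0.87 and 0.83), SmD3 (0.86 and 0.91), l(2)35Cc (0.84 and 0.77) and CG12171 (0.84 and 0.80). They are the top 5 of 5984 genes with a mean of at least 10 CPM that are not members, so high values arise from the choice among many genes. The profile itself ran from -0.40 in BEAF-32 RNAi replicate 1 to 0.32 in control replicate 3, in units of each gene's SD, and BEAF-32 RNAi replicate 2 (0.17), row RNAi replicates 1 (0.073) and 3 (0.13) and double RNAi replicate 3 (0.19) lay within the range of the control libraries (0.023 to 0.32).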
